A study of Mus musculus with 32 samples.

Results

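The genes described here encode 7 neuropeptide precursors that mark interneurons and tufted cells of the mouse olfactory bulb: Sst (somatostatin), Npy (neuropeptide Y), Vip (vasoactive intestinal peptide), Cck (cholecystokinin), Trh (thyrotropin-releasing hormone), Cartpt (the CART peptide precursor) and Crh (corticotropin-releasing hormone). They were chosen by name, with earlier results of these arrays known, and all 9 probes that the array annotation gives to them were followed, out of 25697 probes and 16593 named genes. Vip and Cartpt had 2 probes each and the other genes 1. RNA of whole olfactory bulbs was measured on 32 Illumina bead arrays, 1 array per sample and 8 per group, to compare controls with mutants of Tshz1, the gene of a zinc finger protein that regulates transcription. In late gestation, at E18.5, no sample carried Cre (genotype Nestin +/+), the controls were Tshz1 GFP/+ and the mutants Tshz1 GFP/delta. At P30, postnatal day 30, every sample carried Nestin +/Cre, and the Nestin promoter is known to be active in neural progenitors; the controls were Tshz1 flox/+ and the mutants Tshz1 flox/GFP. Every control therefore carried 1 altered Tshz1 allele, and all mice shared a mixed C57/BL6;129/Ola; CD1 background.

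Neuropeptides are cut from larger precursors, stored in dense core vesicles and released to act on G protein-coupled receptors. A neuron that makes one usually also carries a fast transmitter. In the bulb, somatostatin, vasoactive intestinal peptide and corticotropin-releasing hormone are known from interneurons of the external plexiform layer, neuropeptide Y from deep short-axon cells, and cholecystokinin and CART peptide from tufted cells, which are glutamatergic output neurons. Thyrotropin-releasing hormone is best known as the hypothalamic peptide that drives release of thyrotropin, and is also made by neurons elsewhere in the brain.

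Transcription of several neuropeptide genes is known to respond to cyclic AMP through a palindromic element, TGACGTCA, first worked out at the somatostatin gene, so the promoter windows of the genes were read for it. RefSeq windows (GRCm38.p6, from 250 bases before to 50 after the annotated start) were at hand for 6 of the 7 genes, all but Crh. The full element was in the windows of Sst, at positions -48 to -41 from the start, and of Cartpt, at -112 to -105, and in 588 of 32851 windows of all genes (1.79%). Its TGACG core, counted on both strands and also where it lies inside the full element, was in 5 of the 6 windows and in 20.8% of all windows. The letters of neither were in the Npy window. The stretches that hold the full element or the core are printed 5′ to 3′ along the gene's strand, with the match in capitals, because they are what these genes differ in here; a match of letters is no measurement of binding. They lie at chr16:23890865-23890912 (minus strand, Sst), chr13:99900768-99900815 (minus, Cartpt), chr10:5639119-5639163 (plus, Vip), chr9:121495717-121495761 (minus, Cck) and chr6:92244722-92244766 (minus, Trh). In Cck and Trh the core is on the opposite strand and reads CGTCA.
Sst: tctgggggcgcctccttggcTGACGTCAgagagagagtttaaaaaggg
Cartpt: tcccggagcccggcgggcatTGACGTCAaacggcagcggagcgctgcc
Vip: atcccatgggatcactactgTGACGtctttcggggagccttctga
Cck: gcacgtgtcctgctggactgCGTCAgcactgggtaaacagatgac
Trh: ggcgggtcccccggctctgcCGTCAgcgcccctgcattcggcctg

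Before the results, 3 facts about the arrays matter. The submitters later exchanged the control and mutant labels of the P30 samples, so every direction at P30 rests on the corrected labels, and no probe used here was named Tshz1 that could check them. The 2 chips of an age held 4 arrays of either genotype each and no array of the other age. Age can therefore not be told apart from chip, nor from the alleles and Cre that differ between the ages. On the first principal component of the P30 arrays (32.9% of the variance) mutants 1 and 2 lay at -61.6 and -56.4 and control 4 at -27.4, with the other arrays between -4.45 and 25.5. On that of the E18.5 arrays (25.9%) controls 6 and 8 lay at 31.1 and 33.4, and the next array, control 7, at 17.8. Arrays of the first E18.5 chip lay between -23.9 and -1.21 there, and those of the second between -6.82 and 33.4. The 3 P30 arrays and E18.5 controls 6 and 8 were left out in alternatives. Probes were detected above background on 49.3% to 55.2% of the array at E18.5 and 40.1% to 49.3% at P30. The markers of the bulb were present at both ages: 14 of 17 listed interneuron genes on the array, and 11 (E18.5) and 10 (P30) of 11 mitral and tufted cell genes, entered the tests. Gad2, Calb1 and Synpr were detected on no array.

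Levels are given as log2 normalized intensity, in which 1 unit is a 2-fold change. A gene was tested where its probe was detected (detection p under 0.05) on at least 4 arrays of the comparison, and was called where limma's p, adjusted by Benjamini-Hochberg over all genes tested, was under 0.05. Of the 7 genes, 5 entered at E18.5 and 6 at P30. Crh entered at neither age, and Vip only at P30. No level is set against that of another probe. In whole tissue, fewer cells of a type and less RNA per cell cannot be told apart.

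Across the 4 groups the genes fell into different patterns on the scale shared by all 32 arrays. Sst had similar levels in 3 groups and a separate one in the fourth: 9.96 ± 0.39 in E18.5 controls, 10.12 ± 0.33 in P30 controls, 10.36 ± 0.29 in E18.5 mutants and 12.28 ± 0.62 in P30 mutants (mean ± SD, n = 8 each). On this scale the lowest P30 mutant, at 11.27, was above the highest array of the other groups, at 10.89, whereas the other groups overlapped. Across the ages this rests on the scaling: raw intensities of the P30 mutants began at 1222, and those of the E18.5 mutants reached 3151. Npy ran from 12.20 ± 0.21 in P30 controls to 12.89 ± 0.24 in P30 mutants, 13.04 ± 0.26 in E18.5 controls and 13.12 ± 0.20 in E18.5 mutants, and the last 3 overlapped. The highest P30 control, at 12.61, also overlapped with the lowest E18.5 control, at 12.50. Trh stood at 9.85 ± 0.17 in E18.5 mutants, 10.11 ± 0.34 in E18.5 controls, 11.54 ± 0.41 in P30 controls and 12.64 ± 0.49 in P30 mutants. For Trh each age was apart from the other on this scale, and neighbouring groups within an age overlapped. In raw intensity the ages overlapped for Trh, with P30 controls from 1038 and E18.5 controls up to 2605. How many of all genes part in these ways was not counted.

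Cck, Cartpt and Vip separated by age. Cck stood at 5.91 ± 0.16 in E18.5 mutants and 6.40 ± 0.21 in E18.5 controls, against 12.46 ± 0.23 at P30 in controls and 12.57 ± 0.39 in mutants. The brighter Cartpt probe stood at 6.34 ± 0.68 in E18.5 mutants and 6.54 ± 0.66 in E18.5 controls, against 10.30 ± 0.39 in P30 mutants and 10.97 ± 0.30 in P30 controls. Within each age the Cck and Cartpt groups overlapped. Vip was detected on 0 of 16 arrays at E18.5 and on all 16 at P30 with the probe ILMN_2943387, where controls stood at 10.77 ± 0.50 and mutants at 11.10 ± 0.61. Its other probe, ILMN_1243637, was detected on 0 of the 32 arrays, and the levels of the 4 groups lay between 4.73 and 5.36, so the probes of this gene disagree. Crh was detected on 1 of 8 P30 controls, replicate 6, and on 0 of 8 arrays of each other group, with levels of 5.26 to 6.45 in the controls of that age and 4.90 to 5.51 in its mutants. A value for Crh is thus only a bound, and no fold is given.

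**Figure D1:**
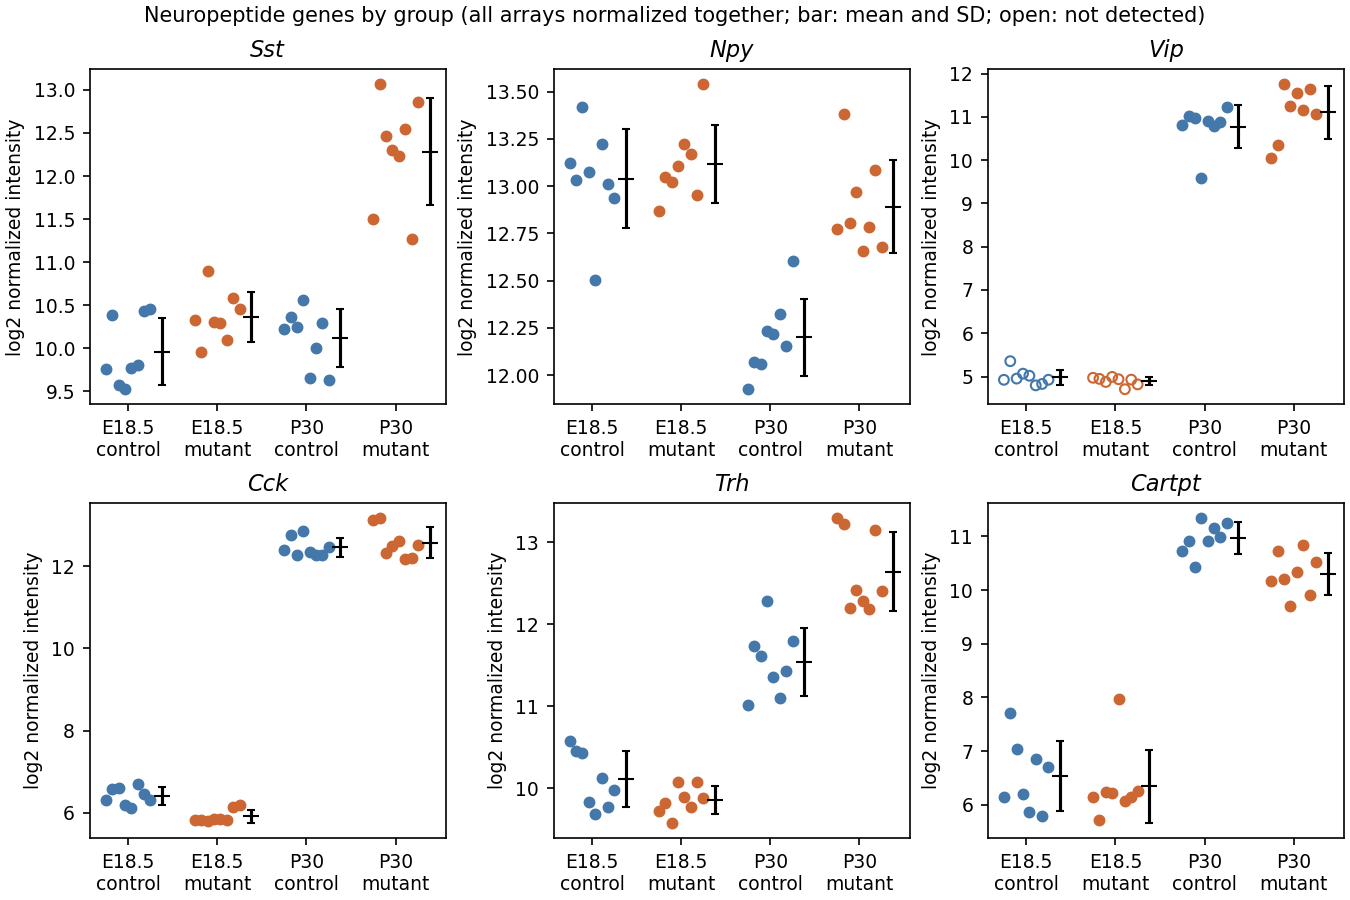
Log2 normalized intensity of the 6 genes that were detected, 1 point per array, with all 32 arrays normalized together; filled points were detected above background, open points were not, and the bars beside them give the mean and SD of 8 arrays. On this scale the P30 mutants stand above all other arrays for Sst, while Vip, Cck and Cartpt separate by age, with Vip detected on no E18.5 array. Raw Sst intensities of the P30 and E18.5 mutants overlapped.

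The controls of the ages were compared directly, as levels of the peptide genes before birth and in the young adult bulb; a call here also needed a 2-fold change. Of 6 genes tested, 4 were called, all higher at P30, where 11.3% of 11312 genes were called higher and 23.9% either way. The median over the 6 was 2.93 and over all genes -0.01. Cck was 66.5-fold higher (log2 difference 6.06, SE 0.14, limma adjusted p = 1.03e-28), the sixth by size among all genes. Cartpt was 21.6-fold higher (4.43, SE 0.25, limma adjusted p = 2.07e-17), and its other probe differed by 3.99. Vip was at least 34.7-fold higher in controls and at least 45.3-fold in mutants, bounds set by the dimmest detected probes of the E18.5 arrays. It entered this comparison only through the P30 arrays, so its place in the count and the median followed from the filter and no p is given for it. These are the tufted cell peptides and an interneuron peptide, and each had 8 of 8 P30 controls above all E18.5 controls.

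Trh was 2.70-fold higher at P30 (1.43, SE 0.18, limma adjusted p = 2.28e-08). Npy differed by -0.84 (SE 0.13, limma adjusted p = 8.43e-07), a 1.79-fold lower level at P30 that did not reach 2-fold. Sst differed by 0.16 (SE 0.21, limma adjusted p = 0.515). These smaller differences depended on the scaling: median scaling in place of quantile moved the median of all genes to -0.53, and the differences became 0.72 for Trh, which was then not called, -1.47 for Npy, which was then called, and -0.62 for Sst, whose sign turned. Relative to that shift of all genes Trh was still higher and Npy lower.

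At E18.5 the mutants were compared with the controls on arrays normalized within that age. Among the 5 genes tested, 1 was called, Cck, and it was lower in the mutants; over all 10852 genes 0.581% were called, 0.507% lower. Controls ranged from 6.41 over a median of 6.73 to 7.09 and mutants from 6.04 over 6.08 to 6.49, and 6 of 8 mutants lay below every control. Mutants 7 and 8, at 6.45 and 6.49, overlapped with the lowest controls. The difference was -0.58 (SE 0.11), with -0.70 on one chip and -0.46 on the other. These levels are close to background: the mutants' raw intensities ran from 152 to 209 and the controls' from 157 to 271, and the detection p of the mutants reached 0.0326. With median scaling (-0.56) and on the second chip alone (-0.46) it was not called.

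The other genes tested at E18.5 were not called. Sst ranged from 10.04 over 10.30 to 10.96 in controls and from 10.47 over 10.82 to 11.39 in mutants, a difference of 0.39 (SE 0.16) with overlapping groups. Npy differed by 0.07 (SE 0.12), from 12.95 to 13.83 in controls and 13.30 to 13.95 in mutants. Trh differed by -0.25 (SE 0.13), with -0.52 on one chip and 0.02 on the other, so the direction of this gene was not the same within both. Cartpt spread widest: controls ran from 6.02 to 8.19 and mutants from 5.93 to 8.47, a difference of -0.22 (SE 0.33) on the brighter probe and -0.30 (SE 0.30) on the other. On that gene the chips differed in sign, -0.78 and 0.34, and the second value included mutant 5, the only high mutant, at 8.47. The other mutants reached 6.58 at most, while the controls spread from near background to several-fold above it. Without mutant 5 the difference over both chips was -0.48. The median over the 5 genes was -0.22 and over all genes -0.01. Since the genes were chosen with this contrast known, nothing is read from their count.

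At P30 the genes split. Sst, Npy and Trh were higher in the mutants, Cartpt was lower, and Vip and Cck were not called. Over all 9928 genes 4.33% were called, 2.00% higher and 2.33% lower, and the choice of genes had used this contrast, so the counts describe these genes and nothing is read from them. The median over the 6 genes was 0.55 and over all genes 0.01.

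Sst had the largest difference of the group. The controls ranged from 8.82 over a median of 9.45 to 9.78 and the mutants from 10.52 over 11.73 to 12.47. Every mutant was above every control, which held, mutants higher, for 0.524% of all genes. The difference was 2.29 (SE 0.24), a 4.88-fold higher level, the sixth by size of all genes, with 2.11 on one chip and 2.46 on the other. Mutants 1 and 7, at 10.77 and 10.52, were the lowest of their group and mutant 2 the highest. Without the arrays that stood apart the difference was 2.35.

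Npy, the other interneuron peptide that was higher, also had groups that did not overlap. Controls ranged from 11.22 over 11.50 to 11.98 and mutants from 12.03 over 12.18 to 12.80. The gap between the highest control, replicate 8, and the lowest mutant, replicate 5, was small beside the range of either group. The difference was 0.76 (SE 0.15), a 1.70-fold higher level, with 1.00 on one chip and 0.53 on the other. With median scaling it was 0.66 and not called.

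Trh ranged from 10.25 over 10.79 to 11.61 in controls and from 11.50 over 11.76 to 12.71 in mutants. Of 8 mutants 5 were above every control, and the overlap came from control 4. Mutants 1, 2 and 7 formed an upper set, at 12.71, 12.63 and 12.56, and the other 5 lay between 11.50 and 11.77. The difference was 1.19 (SE 0.22), a 2.29-fold higher level, with 1.22 and 1.17 on the chips. Without mutants 1 and 2 it was 0.97, and without control 4 as well 1.09.

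Cartpt was the gene that was lower in the mutants. On the brighter probe, ILMN_2719755, controls ranged from 9.65 over 10.19 to 10.60 and mutants from 8.90 over 9.48 to 10.06. Of 8 mutants 5 were below every control. The difference was -0.69 (SE 0.18), a 1.62-fold lower level, with -0.68 and -0.71 on the chips. The other probe, ILMN_3123063, gave controls of 8.87 over 9.37 to 9.84 and mutants of 8.03 over 8.26 to 9.0, with 7 of 8 mutants below every control and a difference of -0.98 (SE 0.17). The probes thus had the same direction. The call on the brighter probe was lost when any of controls 4, 6, 7 or 8 or mutants 3, 4 or 7 was left out, with differences of -0.61 to -0.69.

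Cck, the other tufted cell peptide, ranged from 11.59 over 11.72 to 12.25 in controls and from 11.49 over 11.85 to 12.58 in mutants, a difference of 0.12 (SE 0.18) with groups that overlapped at both ends. Vip ranged from 8.77 over 10.13 to 10.49 in controls and from 9.25 over 10.46 to 11.02 in mutants, a difference of 0.35 (SE 0.26). The lowest Vip values at P30 were those of control 4 and mutants 1 and 2, the arrays that stood apart, and on the same arrays Cck was the highest of its group. Without these 3 arrays Vip differed by 0.49 and Cck by -0.02, neither of them called. Without the mutants alone Vip differed by 0.66, also not called.

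The ages were also set against each other, as the mutant difference at P30 minus that at E18.5 on all 32 arrays. This uses the contrasts on which the genes were chosen and is given as a description. Of the 6 genes tested, 2 were called, both with a higher difference at P30, where 1.85% of 11312 genes were called and 1.03% higher. Sst differed by 1.76 (SE 0.29) and Trh by 1.36 (SE 0.26). Npy (0.61, SE 0.18), Cck (0.61, SE 0.20) and Cartpt (-0.48, SE 0.35) were not called. Vip was not called either, but it was detected on no E18.5 array and entered only through the P30 arrays. Its mutant difference at E18.5 was thus not measured, and no value is given for it, though it is counted in the median. The median over the 6 was 0.61 and over all genes 0.02.

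**Figure D2:**
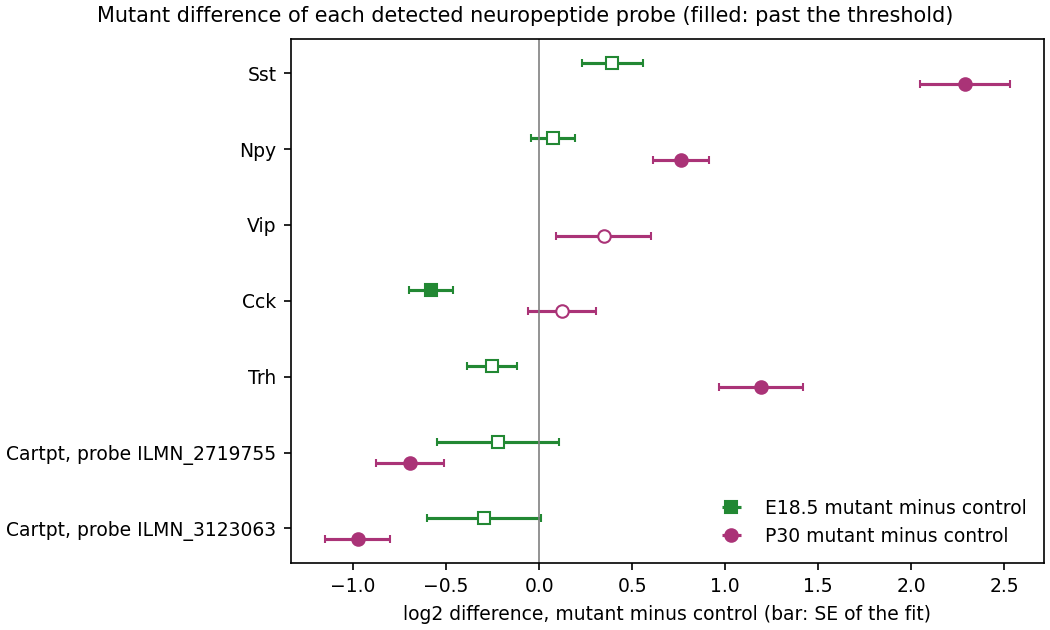
Log2 difference of mutant minus control for each probe that was tested, at E18.5 (squares) and P30 (circles), with the standard error of the limma fit as bars; filled symbols passed the threshold of 0.05 after adjustment over all probes. Sst, Npy and Trh lie to the right and both Cartpt probes to the left at P30, while only Cck is filled at E18.5.

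**Figure D3:**
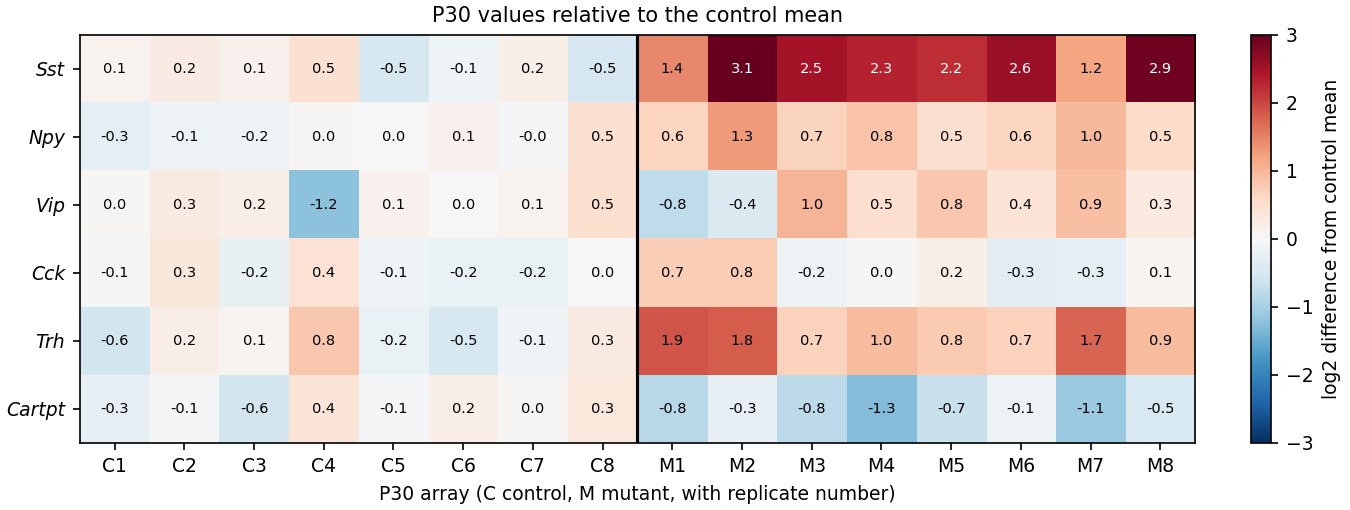
Level of 6 genes on each P30 array minus the mean of the 8 controls, in log2 units, with 1 column per array (C for controls, M for mutants, with the replicate number) and red above and blue below the control mean. Sst is above the control mean on all 8 mutants, and C4, M1 and M2 share low Vip and high Cck.

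Some pairs of the genes varied together from array to array, some in opposite directions and some hardly at all. After the mean of each genotype on each chip was taken off, Vip and Cck had r = -0.70 over the 16 P30 arrays, Npy and Trh r = 0.62, Cck and Trh r = 0.62, Sst and Cartpt r = 0.59, Vip and Cartpt r = -0.56, Cck and Cartpt r = 0.55, Vip and Trh r = -0.55, and Sst and Npy r = 0.02. At E18.5 the closest pair was Npy and Cck, with r = 0.61. Arrays that stand apart enter these values, which are given as descriptions.

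The genes whose residual pattern over the 16 P30 arrays was most like each peptide gene were found in the same way among all 9928 tested. For Sst they were Mbp (r = 0.86), Mmp17 and Mas1, and without the 2 arrays farthest from the median, both mutants, the first fell to 0.64. For Npy they were Mrps2 (0.87), Brat1 and Bcs1l, and for Trh Anxa2 (0.90), Hint2 and Dpp3. For Vip they were Hmgcll1 (0.93), an unnamed probe and Tra2a, for Cck Eri3 (0.96), Rpl36a and an unnamed probe, and for Cartpt Stx1a (0.83), Taldo1 and Cnih3. At E18.5 they were Pcbd1 (0.87), Lmo3 and Dera for Sst, Mrpl33 (0.88), Ptgis and Mmp11 for Npy, Rinl (0.92), Nkiras2 and Slc15a3 for Cck, and Spns1 (0.86), Slc7a4 and Nostrin for Trh. Cartpt at E18.5 was closest to S100a5 (0.94), Atp6v1c2 and Ces1d, and without mutant 5 and control 2, its highest arrays, the first was 0.87. No gene appeared beside more than 1 peptide gene.

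Other neuropeptide precursors gave a setting for these values; the companion lists, too, were drawn up with earlier results known. At P30, 13 of 36 listed precursors were tested, and 3 were higher and 1 lower in the mutants, with a median of 0.37; over all 9928 genes 2.00% were higher and 2.33% lower, with a median of 0.01. Pdyn, the precursor of the opioid dynorphin, was higher by 2.19 (SE 0.21, limma adjusted p = 7.55e-07), Tac1, the precursor of substance P, by 1.49 (SE 0.22, limma adjusted p = 0.000146) and Nppa, the precursor of atrial natriuretic peptide, by 0.56 (SE 0.15, limma adjusted p = 0.0264). Prok2, a secreted prokineticin that attracts migrating bulb neuroblasts, was lower (-1.77, SE 0.22) and was detected on 8 of 8 controls and 3 of 8 mutants. Prok2 met the filter of 4 arrays only through the controls. Its place in the count therefore followed from the filter, and no p is given for it at P30. Without the 3 arrays that stood apart the Nppa call was lost. Of the precursors 12 of 13 had positive differences, and the share of all genes that did was not counted. Pmch (0.24, SE 0.78), Oxt (0.12, SE 0.29) and Pnoc (0.12, SE 0.17) lay within their SE of 0. Among the 12 that were positive, Cort, the somatostatin relative cortistatin (0.56, SE 0.23, limma adjusted p = 0.203), was not called. Adcyap1, the relative of Vip known as PACAP (0.71, SE 0.21, limma adjusted p = 0.0627), was not called either. At E18.5, 14 precursors were tested and limma called 0, and Prok2 had the smallest p (-0.60, SE 0.15, limma adjusted p = 0.0905).

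The receptors and binding proteins of the 7 peptides were mostly under background. Of 19 on the array, 8 were tested at each age, and 4 of the 5 somatostatin receptors (Sstr1 to Sstr4) were detected on no P30 array. At P30, 3 of 8 were lower in the mutants and 0 higher, with a median of -0.25, beside 2.33% lower and 2.00% higher over all 9928 genes and a median of 0.01. Cckbr, the cholecystokinin receptor of the brain, differed by -0.98 (SE 0.18, limma adjusted p = 0.00137). Trhr, the receptor of thyrotropin-releasing hormone, differed by -0.98 (SE 0.23) and was detected on 6 of 8 controls and 2 of 8 mutants. Trhr met the filter of 4 arrays only through the controls. Its place in the count therefore followed from the filter, and no p is given for it. Vipr2, a receptor of vasoactive intestinal peptide, was detected on 5 of 8 controls and 0 of 8 mutants and was at least 1.09-fold lower; it entered the test only through the controls, so its place in the count followed from the filter and no p is given for it. The fitted Trhr level was lower in the mutants, where its ligand gene Trh was higher, but only 2 of 8 mutants had Trhr detected. The ligand genes of the other receptors, Cck and Vip, were not called. Npy1r, the receptor of neuropeptide Y, differed by -0.09 (SE 0.25, limma adjusted p = 0.919). Without the arrays that stood apart Crhbp joined the called genes, as higher.

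At E18.5 1 of 8 genes of this list was called, beside 0.581% of all genes: Crhbp, the secreted protein that binds and holds corticotropin-releasing hormone, which differed by -1.18 (SE 0.16, limma adjusted p = 0.000543), while Crh itself was detected on 0 of 16 arrays. Cckbr differed by -0.64 (SE 0.18, limma adjusted p = 0.208), and Trhr by -0.13 (SE 0.20, limma adjusted p = 0.85). Between the controls of the ages Crhbp was 29.5-fold (limma adjusted p = 7.71e-22) and Cckbr 9.48-fold (limma adjusted p = 3.52e-18) higher at P30. Of 9 genes of this list tested between these controls, 4 were called higher, beside 11.3% of all 11312 genes. The others were Crhr1 (2.07-fold) and Vipr2. Vipr2 was detected on no E18.5 array and entered only through the P30 arrays, so its place in the count followed from the filter. A ligand and a receptor gene of the cholecystokinin pair, Cck and Cckbr, were both called higher in the P30 controls. Age cannot be told apart there from chip, alleles and Cre.

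**Figure D4:**
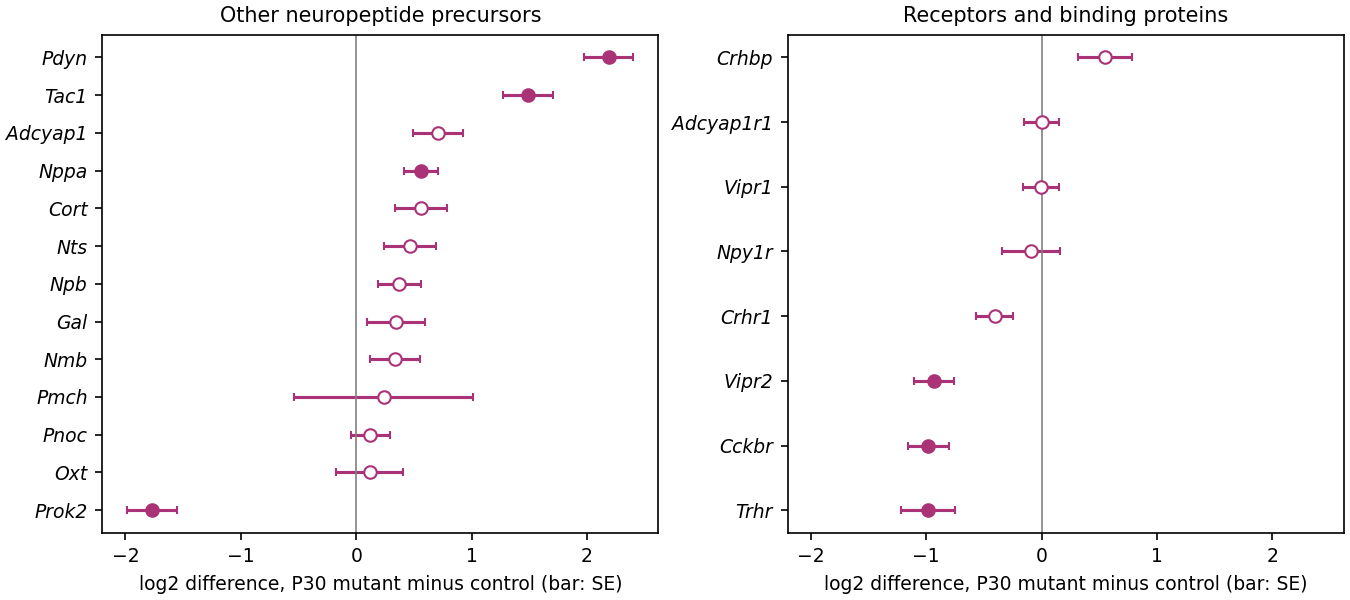
Log2 difference of P30 mutants minus controls, with the standard error of the fit, for the other neuropeptide precursors (left) and the receptors and binding proteins (right) that were tested; filled symbols passed the adjusted threshold of 0.05. Pdyn, Tac1 and Nppa lie to the right and Prok2 to the left, and the 3 called receptors lie to the left. The Vipr2 point is the fitted value of a gene that was detected on 0 of 8 mutants. Prok2 and Trhr met the detection filter only through the controls.

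Most genes that cut, package or degrade peptides were not called. Of 17 processing and dense core vesicle genes tested at P30, where 4.33% of all genes were called, 1 was called, Chga (chromogranin A, 0.80, SE 0.22, limma adjusted p = 0.0368), and 0 were called by limma without mutants 1 and 2. At E18.5, where 0.581% of all genes were called, 1 of 17 was called, Vgf, a granin-like precursor (-0.78, SE 0.14, limma adjusted p = 0.00747). Of the peptidases 1 of 9 was called at E18.5, Trhde, the enzyme that degrades thyrotropin-releasing hormone (-0.81, SE 0.13, limma adjusted p = 0.00228). At P30 limma called 0 of 7, and Trhde had the smallest p (-0.74, SE 0.26, limma adjusted p = 0.112). Between the controls of the ages 8 of the 17 processing genes were called higher at P30, with a median of 0.84 over the list, beside 11.3% of all 11312 genes and a median of -0.01, led by Chgb, chromogranin B (5.50-fold, limma adjusted p = 1.04e-18).

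Markers of cell types moved with genotype at P30 beside these genes; over all 9928 genes 2.00% were higher and 2.33% lower. Of 14 bulb interneuron genes tested, Gng4, Nrgn, Pbx3 and Meis2 were lower and Th higher in the mutants. The mean level of the list ran from 10.07 to 10.63 in controls and 10.01 to 10.25 in mutants. The overlap came from control 8, at 10.07, and the other controls lay between 10.47 and 10.63. Of 10 mitral and tufted cell genes, Slc17a7 (1.12, SE 0.21, limma adjusted p = 0.00189), Uchl1 and Tbr1 were higher and Doc2g lower, with list means of 9.22 to 9.73 and 9.61 to 10.13. Of 7 microglial genes C1qa, C1qb, C1qc and Trem2 were higher, with list means of 7.19 to 7.80 and 7.74 to 9.14, the highest in mutant 1. Gfap was higher among 7 astrocyte genes, and their list means ran from 10.07 to 10.46 and from 10.37 to 10.76. Of 11 immediate early and cyclic AMP-responsive genes Egr2, Arc, Fosb and Npas4 were lower and 0 higher, with a median of -1.15. The part of any of these in the differences of the peptide genes was not tested.

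Sst and Npy are also made by neurons that neighbour the bulb. The P30 calls below stand beside 2.00% of all 9928 genes called higher and 2.33% lower. Of the markers of cortical interneurons born in the medial ganglionic eminence, Lhx6, Sox6, Nkx2-1 and Npas1 were detected on no P30 array, and of the 4 tested Elfn1 was lower (-0.78, SE 0.17, limma adjusted p = 0.00811) and 0 were higher. The list means ran from 8.86 to 9.53 in controls and 8.51 to 9.32 in mutants. Of 5 striatal genes Ppp1r1b was higher (0.81, SE 0.17, limma adjusted p = 0.00435), and Six3 was detected on no array. The striatal list means ran from 6.87 to 7.17 in controls and from 7.32 to 7.62 in mutants, without overlap. Those of the receptors and binding proteins did not overlap either, at 7.06 to 7.35 in controls and 6.47 to 7.02 in mutants. How often means of such lists part was not counted. Of 7 projection neuron genes of cortex and anterior olfactory nucleus Tbr1, also on the tufted cell list, was higher, and list means of 7.53 to 8.29 and 7.74 to 8.30 overlapped. Of 9 hypothalamic genes 6 were detected on no P30 array. The 2 that were tested, Pmch, detected on 4 controls and 4 mutants, and Oxt, on 5 and 5, were not called, and their list means varied widely, from 5.14 to 7.76 in controls and from 5.17 to 8.16 in mutants. Their part in the Sst, Npy and Trh differences was not tested.

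At E18.5, where the peptide genes other than Cck were not called, 5 of 14 bulb interneuron genes were lower, Gng4, Th, Slc32a1, Nrgn and Gad1, beside 0.507% of all 10852 genes, with list means of 10.58 to 11.11 in controls and 10.61 to 10.79 in mutants. No gene of the mitral and tufted cell list was called by limma among 11 tested, with list means of 10.51 to 10.89 and 10.61 to 10.86. Limma also called 0 genes of the striatal, microglial and projection neuron lists at this age. Whether these lists bear on the lower Cck was not tested.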

How the data were processed

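Total RNA of mouse olfactory bulb had been labelled as biotinylated cRNA and read on 32 Illumina bead arrays; GenomeStudio is named in the submitters' processing notes, and for its version, and for the genome build behind the annotation, nothing is given in the sources used here. Per the file headers, the table deposited as non-normalized pairs each array's averaged intensity per probe with a p-value of detection, and its values show no background subtraction. The authors also deposited a normalized intensity table, with 25.7% of values below 0, whose scaling is not stated; it was used as an alternative with values under 16 set to 16.

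Raw intensities were processed with neqc of limma 3.58.1 in R 4.3.3, which estimates the background by way of the p-values of detection and returns quantile normalized log2 values after adding 16. Arrays of each age were normalized alone for the mutant comparisons and all 32 together otherwise. Probes detected (p under 0.05) on at least 4 arrays of a fit were kept, and the brightest represented its gene, which left 10852, 9928 and 11312 genes and unnamed probes at E18.5, at P30 and over both ages. Differences were tested two-sided by lmFit and eBayes, calls were made at 0.05 after Benjamini-Hochberg adjustment, and between control groups a 2-fold change was needed too. The fits were tested on simulated data.

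The 7 genes, the companion lists and the naming rule were chosen with earlier results of these data known. The rule named all 7 genes with every probe, the called members of each companion list (up to the 4 with the smallest p each way, else the smallest p), and the 3 genes of highest residual correlation; Cort, Adcyap1, Npy1r, the genes listed as undetected and list members named beside a ligand were added after their values were seen. Where a group had a gene on no array, its fold is a bound from means of normalized log2 values. Same-numbered samples lay on the same chip, and at E18.5 their deviations from the group means correlated in all 8 pairs (r from 0.118 to 0.355). Chip means were not taken off, so a pairing cannot be told apart there from a shared chip. The number was fitted as a block in an alternative only. The labels do not say whether replicates came from separate animals; the p-values then reflect the spread among these samples alone, which may be technical. The number of arrays limits the precision. Promoter windows are from RefSeq (GRCm38.p6). Alternatives changed the normalization, the offset, the filter, the probe rule, the chips and the arrays used.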

Additional observations from a re-analysis of the deposited data

Results flagged for a closer look

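In each group of 8 arrays the highest and lowest values of the probes were compared with their neighbours over 26 groups of values, of which chance would mark about 1 in 20. Vip stood at 8.77 (log2 normalized intensity) in P30 control 4, far below the other 7 controls, on an array that also stood apart over all genes. Cartpt stood at 8.47 on one probe and 7.89 on the other in E18.5 mutant 5, far above the other 7 mutants, so both probes marked the same array. The mutant difference was larger at P30 than at E18.5 for Sst, by 1.76 (SE 0.29, limma adjusted p = 0.000258), with P30 mutants above all controls on 8 of 8 arrays and E18.5 mutants on 2 of 8. It was larger for Trh by 1.36 (SE 0.26, limma adjusted p = 0.00167), with 5 of 8 and 0 of 8. These differences rest on arrays on which the genes had been chosen, and age, chip, alleles and Cre cannot be told apart in them.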

How the results depend on the processing

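The number of neuropeptide genes called at E18.5 was 1 in the reported setting and 0 with median scaling or on the second chip alone; of all genes 63 were called, and 40 and 5 on the first and second chip alone. At P30 the 4 neuropeptide genes called became 2 with median scaling (Sst and Trh), 1 on the first chip and 2 on the second, and the 430 of all genes became 137 and 186 on the chips, where fewer arrays were fitted. Leaving out each array in turn gave 1 neuropeptide gene and 50 to 73 genes at E18.5, and 3 to 4 and 340 to 470 at P30, the lower count from the loss of Cartpt. With the arrays that stood apart left out, an alternative chosen after seeing the data, the same peptide genes were called at both ages, with 51 of all genes at E18.5 and 514 at P30. With a replicate block, Cck (1 gene) was called at E18.5 with 62 of all genes, and the same 4 genes at P30 with 539; no call of a peptide gene changed. At P30 same-numbered samples correlated above 0.1 in 6 of 8 pairs (r from -0.07 to 0.417). Chip means were not taken off at either age, so these correlations do not show whether the numbers are a pairing. No called value turned sign in any alternative run. With an offset of 50, Npy also passed for the difference between the ages (0.61). Not called were Npy (0.66, 1.00 and 0.53) and Cartpt (-0.81, -0.68 and -0.71) at P30 with median scaling and on each chip, and Trh (1.22) on the first chip; the causes were not tested. Genes near background, Crh, Vip at E18.5 and in part Cck and Cartpt at E18.5, are limited by signal over background.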

Other observations

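Other neuropeptide precursors also separated the control groups of the ages. Of 18 tested on all arrays, 8 were called higher at P30 and 2 lower, against 11.3% of all genes called higher and 23.9% either way. Pmch, 1 of the 8, was detected on no E18.5 array and entered only through the P30 arrays. Its place among the 8 therefore followed from the filter, and no fold or p is given for it. Nppa was 11.4-fold higher (limma adjusted p = 1.12e-20), Gal, the precursor of galanin, 7.35-fold (limma adjusted p = 2.82e-11), Nmb, the precursor of neuromedin B, 3.74-fold (limma adjusted p = 8.1e-11) and Adcyap1 3.64-fold (limma adjusted p = 9.08e-11). Nts, the precursor of neurotensin, differed by -3.53 (SE 0.25, limma adjusted p = 2.45e-14). Grp, the precursor of gastrin-releasing peptide, was detected on 8 of 8 E18.5 controls and on no P30 array, and so entered the comparison only through the E18.5 arrays, which set its place among the 2; no fold or p is given for it. The ages lie on different chips, and their controls differ in alleles and Cre, so age cannot be told apart from these.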
